A study of Mus musculus with 8 samples.

Results

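The kidney development factors examined here are 9 genes for transcription factors and coactivators of the embryonic kidney, namely Osr1, Osr2, Sall1, Six2, Pax2, Pax8, Eya1, Tcf21 and Foxd1. Their members on the array are all probe sets that the platform annotation assigns to these symbols, whatever their signals. The symbols themselves were chosen with earlier results of these data known. This gave 14 probe sets of 8 genes, out of 45101 probe sets on the array. Osr1, Six2 and Foxd1 had 1 probe set each, Osr2, Sall1, Pax8 and Tcf21 had 2 each, and Eya1 had 3. Pax2 had 0 probe sets under its symbol and was not analysed here.

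LB-22, an immortalized line of mouse embryonic kidney cells, was profiled after Wt1 siRNA (4 arrays) or scrambled control siRNA (4 arrays). Both groups were given 25 pmol of siRNA for 6 h, and total RNA was taken at 48 h. Both had been expanded at 33 °C with interferon gamma and basic FGF, and were moved to 37 °C without the interferon when they were transfected. All arrays come from this 1 line, and nothing in the labels says that the 4 arrays of a group came from separate cultures, so each p-value reflects the spread among the arrays alone, and that spread may be technical.

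In the embryonic kidney, nephrons arise from a pool of mesenchymal progenitors that both renew themselves and turn into epithelium. OSR1 marks the earliest of these cells, EYA1 is a coactivator of SIX2 and its relatives, SIX2 keeps progenitors undifferentiated, SALL1 is a zinc finger protein needed for growth of the ureteric bud into the mesenchyme, and PAX2 and PAX8 are paired box factors of progenitors and of the epithelium that forms from them. FOXD1 marks the stromal progenitors around the nephron progenitors, and TCF21, a basic helix-loop-helix protein, is made in stroma and podocytes. WT1, the factor lowered here, is a zinc finger protein that is itself required in nephron progenitors.

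The targeted gene checked the labels. Wt1 had signals of 1679.3, 1531.0, 1316.8 and 1913.9 on Wt1 siRNA arrays 1 to 4, against 8396.8, 7129.4, 8197.2 and 7423.0 on control siRNA arrays 1 to 4. Every Wt1 siRNA array lay below every control siRNA array, and 20.5% of the control level remained (log2 difference -2.28 ± 0.11, SE; limma adjusted p = 9.17e-07; permutation p = 0.0286, exact and two-sided, the minimum for 4 against 4 arrays). Array background was taken as the highest signal among 27 control probe sets for Bacillus transcripts, which was 121.6 to 227.2 across arrays. The median signals put 3 Wt1 siRNA arrays and 1 control siRNA array (replicate 3) at 279.1 to 299.1, and 1 Wt1 siRNA array (replicate 4) and 3 control siRNA arrays at 336.1 to 346.1. These 2 classes were seen in the data and match no label, so values within each class are given for the members below. The ratio of the 3' to the 5' Gapdh control probe set was 0.810 to 0.891 on Wt1 siRNA arrays and 0.793 to 0.913 on control siRNA arrays.

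Osr1 was the one factor of the group that passed the test, and it rose after Wt1 siRNA. Six2, Eya1 and Tcf21 each had a probe set that could be tested and did not pass. Sall1, Osr2 and Foxd1 stayed at array background on nearly every array of both groups. Of the 14 member probe sets, 5 were above background on all 8 arrays, 3 on some arrays and 6 on 0 arrays. The brightness filter, which keeps the brighter share of 0.5 of all probe sets by mean log2 signal, passed 4 member probe sets and left 10 untested. With limma and Benjamini-Hochberg adjustment over the 22519 tested probe sets, 1 of the 4 was higher and 0 were lower (background 23.1% called in either direction, 10.8% higher and 12.3% lower). Osr1 and probe sets of Eya1 (1443117_at) and Pax8 (1446561_at) reached an unadjusted p under 0.05 in the fit without a filter. The Eya1 and Pax8 probe sets lay under background on every array. The share of all probe sets at that unadjusted threshold was not counted, so nothing is read from it. After adjustment, the fit without a filter called 0 of the 10 dim member probe sets (1.19% of all probe sets under the filter, and 9.65% of all 45037). Of the 10, 0 had groups that did not overlap (4.65% of those under the filter).

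**Figure D1:**
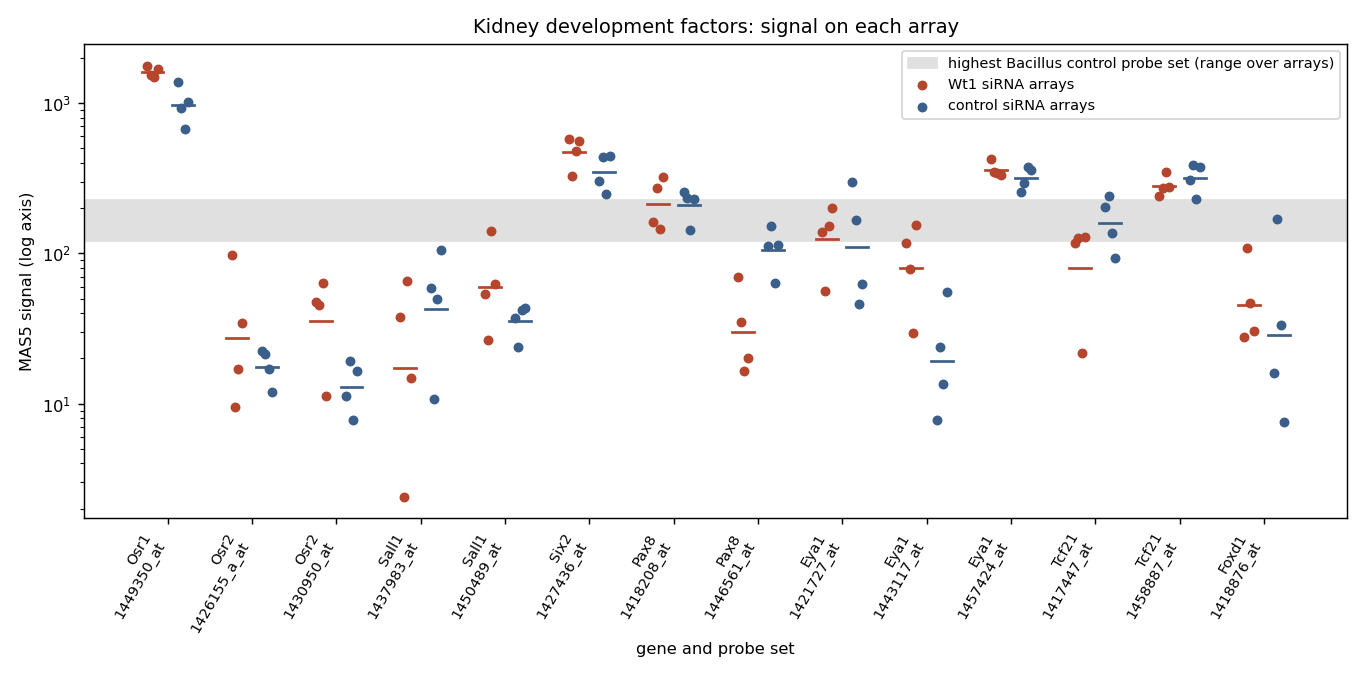
MAS5 signal (log axis) of the 14 member probe sets on each array, with Wt1 siRNA arrays left (red) and control siRNA arrays right (blue) of each position, short lines for geometric means, and a grey band for the range over arrays of the highest Bacillus control signal (121.6 to 227.2). The 4 Wt1 siRNA points of Osr1 lie above its 4 control points, and the points of Osr2 and one Sall1 probe set lie under the band on all 8 arrays.

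Osr1, the odd-skipped zinc finger factor of the intermediate mesoderm and of the earliest nephron progenitors, was measured by 1449350_at. Its signals were 1773.3, 1536.8, 1489.4 and 1691.8 on Wt1 siRNA arrays 1 to 4, against 1371.3, 924.2, 667.2 and 1014.8 on control siRNA arrays 1 to 4. All Wt1 siRNA arrays lay above all control siRNA arrays, and the closest pair was Wt1 siRNA array 3 and control siRNA array 1. The means were 1623 ± 132 after Wt1 siRNA and 994 ± 291 after control siRNA (SD, n = 4 each), a 1.68-fold rise with a 95% interval of 1.27 to 2.24. The log2 difference was 0.75 ± 0.19 (SE; adjusted p = 0.0137; exact two-sided permutation p = 0.0286). The same lack of overlap between groups held for 27% of tested probe sets, 12.7% in the upward direction. The bulk arrays cannot tell more cells with Osr1 transcript from more transcript per cell.

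Because its groups did not overlap, the Osr1 difference had to be positive in both classes of array median, so only its size is informative there. In the lower class it was 1.26 (3 Wt1 siRNA arrays and 1 control siRNA array), and in the higher class it was 0.64 (1 Wt1 siRNA array and 3 control siRNA arrays). With the class as a block it was 0.95 (adjusted p = 0.00351), and with arrays centred on their medians it was 0.86 (adjusted p = 0.00243), where the median of all tested probe sets shifted by 0.11. Leaving out 1 array at a time gave 0.57 (without control siRNA replicate 3, adjusted p = 0.0150) to 0.92 (without control siRNA replicate 1). The call had its weakest support without Wt1 siRNA replicate 1, at an adjusted p of 0.0431. By size, Osr1 ranked 380 among the 2430 probe sets called higher.

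Osr2, the paralogue of Osr1 best known from palate and limb development in mice, was at background. On 1426155_a_at the signals were 98.0, 9.5, 16.9 and 34.5 on Wt1 siRNA arrays 1 to 4, against 22.4, 21.5, 16.9 and 11.9 on control siRNA arrays 1 to 4. On 1430950_at they were 47.6, 45.3, 63.6 and 11.3 on Wt1 siRNA arrays, against 11.2, 19.2, 7.8 and 16.5 on control siRNA arrays. The groups overlapped on both probe sets, and no fold is given because every value was under its array's background. In the fit without a filter the adjusted p was 0.713 and 0.243.

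Six2, the homeobox factor that holds nephron progenitors in their undifferentiated state, was above background on all 8 arrays. Its signals were 573.0, 328.4, 479.1 and 554.2 on Wt1 siRNA arrays 1 to 4, against 303.0, 434.4, 246.3 and 446.4 on control siRNA arrays 1 to 4. The groups overlapped, since Wt1 siRNA array 2 lay below control siRNA arrays 2 and 4. The means were 484 ± 111 and 358 ± 98.6 (Wt1 siRNA and control siRNA, SD, n = 4 each), and the log2 difference of 0.45 ± 0.26 did not pass (adjusted p = 0.243). Its 95% interval, 0.92-fold to 2.02-fold, leaves room for a rise as large as that of Osr1. The difference was 0.86 in the lower and 0.51 in the higher class of array median, and 0.69 with the class as a block (adjusted p = 0.0769).

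Eya1, the SIX2 coactivator that is also a protein phosphatase, was read by 3 probe sets of unequal quality. On 1457424_at, the one that passed the filter, the signals were 424.2, 349.7, 342.9 and 331.4 on Wt1 siRNA arrays 1 to 4, against 256.7, 292.7, 375.1 and 356.2 on control siRNA arrays 1 to 4. Those groups overlapped, and the log2 difference of 0.19 ± 0.21 did not pass (adjusted p = 0.567; 95% interval 0.83-fold to 1.57-fold). It was 0.15 in the higher and -0.02 in the lower class of array median.

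The other 2 Eya1 probe sets were dim and scattered. On 1443117_at the signals were 117.4, 78.5, 29.6 and 153.4 on Wt1 siRNA arrays, against 7.8, 23.7, 13.6 and 55.0 on control siRNA arrays. Array 3 of the Wt1 siRNA group fell within the control range, all 8 values were under background, and the unfiltered fit gave an adjusted p of 0.126 (unadjusted p = 0.0187; exact permutation p = 0.0571). On 1421727_at 3 of 8 arrays exceeded background, with 55.8 to 200.9 after Wt1 siRNA and 46.0 to 299.5 after control siRNA. On the log2 scale, arrays of a group had an SD of 0.21 for the tested Eya1 probe set, against 1.12 and 1.05 for these 2.

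**Figure D2:**
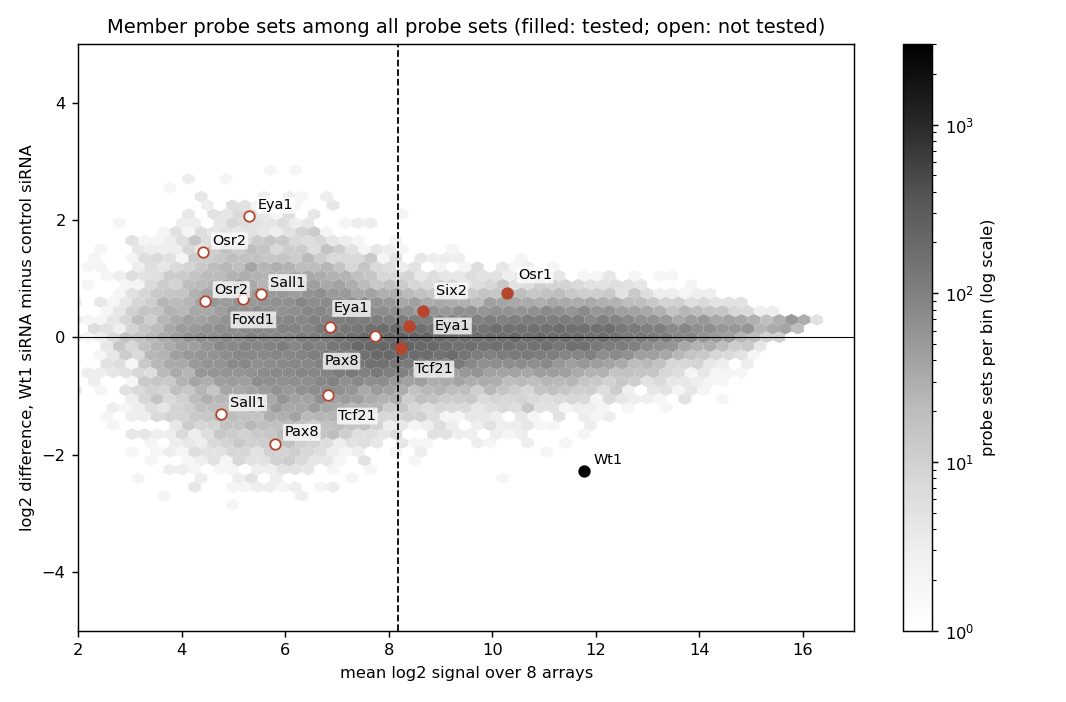
Mean log2 signal over the 8 arrays (x axis) against the log2 difference, Wt1 siRNA minus control siRNA (y axis), for all probe sets that are not array controls (grey bins), with member probe sets in red (filled where tested, open where not) and Wt1 in black. The dashed line marks the brightness filter at a geometric mean signal of 291.1, and to its left the cloud widens, with a median SD within groups of 0.863 against 0.191 for tested probe sets.

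Of the tested member probe sets, 3 lie close to the filter, whose lowest mean signal was 291.1. The geometric mean over the 8 arrays was 299.7 for Tcf21 (1458887_at), 337.7 for Eya1 (1457424_at) and 404.9 for Six2, just inside it. The nearest untested member was Pax8 (1418208_at) at 212.3. The SD within groups was 0.39 for Six2 and 0.29 for Tcf21, above the median of 0.191 for tested probe sets, and 0.31 for Osr1.

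Pax8, the paired box factor of the forming nephron and of the thyroid, had a probe set above background on every array and under the filter. On 1418208_at the signals were 162.7, 272.3, 146.1 and 322.3 on Wt1 siRNA arrays 1 to 4, against 257.5, 232.1, 143.3 and 231.2 on control siRNA arrays 1 to 4. The groups overlapped, with Wt1 siRNA arrays 2 and 4 above the highest control siRNA array, and had means of 226 ± 85.3 after Wt1 siRNA and 216 ± 50.0 after control siRNA (SD, n = 4 each; permutation p = 0.971 on log2 values, exact and two-sided). The interval of the difference, from the fit without a filter, ran from 0.59-fold to 1.75-fold. The second probe set, 1446561_at, gave 69.1, 34.9, 16.6 and 20.1 on Wt1 siRNA arrays, against 111.1, 152.3, 63.6 and 112.9 on control siRNA arrays. Only Wt1 siRNA array 1 reached the control range there, but all 8 values were under background and the adjusted p without a filter was 0.0902 (exact permutation p = 0.0571).

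Sall1, the spalt-like zinc finger factor of the metanephric mesenchyme, could not be measured. On 1437983_at the signals were 37.8, 2.4, 65.9 and 14.7 on Wt1 siRNA arrays, against 58.9, 10.8, 49.3 and 104.5 on control siRNA arrays. On 1450489_at they were 53.6, 26.4, 141.2 and 62.9 on Wt1 siRNA arrays, against 37.2, 23.9, 41.7 and 43.3 on control siRNA arrays, and Wt1 siRNA array 3 was the only value above its background. The 2 probe sets differed in the sign of their group difference, and the adjusted p without a filter was 0.537 and 0.564.

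Of the 2 stromal factors, Tcf21 was weakly measured and Foxd1 was not. On 1458887_at Tcf21 had signals of 241.4, 271.3, 347.3 and 276.7 on Wt1 siRNA arrays 1 to 4, against 308.4, 387.8, 230.7 and 375.1 on control siRNA arrays 1 to 4. The groups overlapped, and the log2 difference of -0.18 ± 0.24 did not pass (adjusted p = 0.638; 95% interval 0.61-fold to 1.27-fold). Its sign differed between the classes of array median, at 0.30 in the lower and -0.36 in the higher class. The second Tcf21 probe set, 1417447_at, gave 21.8 to 129.2 on Wt1 siRNA arrays, against 92.9 to 242.1 on control siRNA arrays, and 2 control siRNA arrays alone exceeded background. Foxd1, the forkhead factor of stromal progenitors, gave 27.8 to 108.7 on Wt1 siRNA arrays, against 7.6 to 169.1 on control siRNA arrays, all under background.

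**Figure D3:**
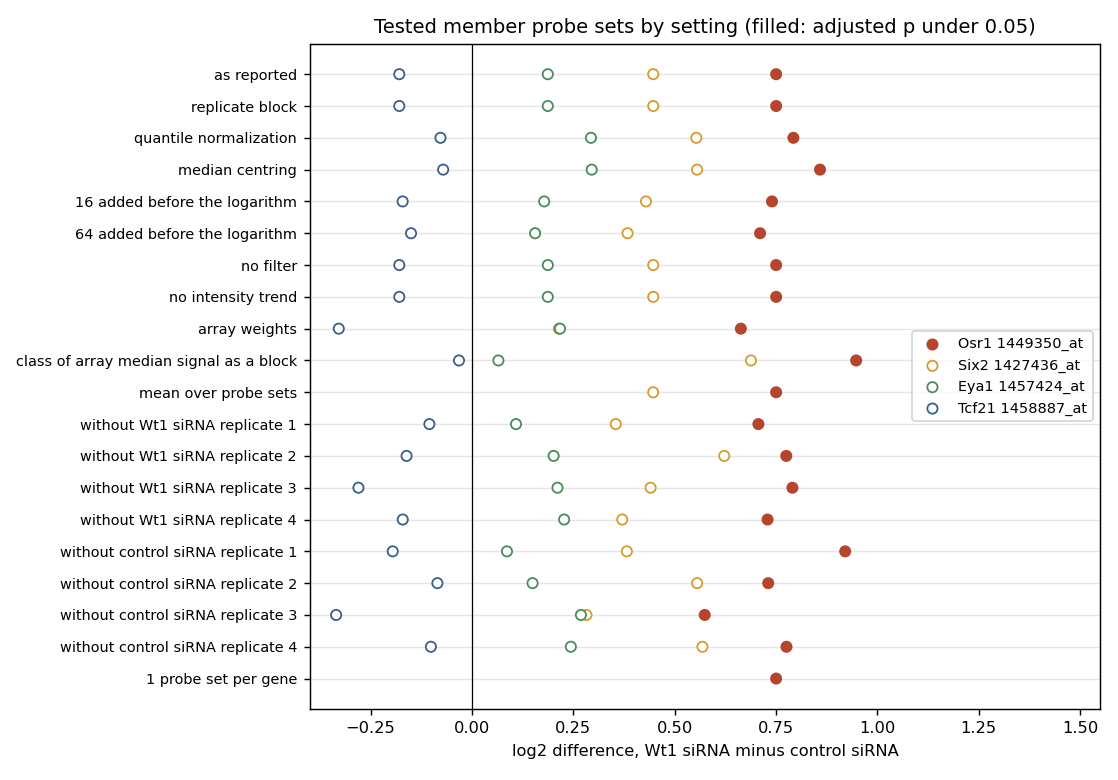
Log2 difference, Wt1 siRNA minus control siRNA (x axis), of the 4 tested member probe sets under the reported fit and each alternative that could test them (rows), filled where the adjusted p was under 0.05. Osr1 is filled in every row shown, from 0.57 to 0.95, and Six2, Eya1 and Tcf21 are open in every row shown.

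Defining markers placed these values beside those of other cell types. Among 6 nephron progenitor markers, Osr1, Six2 and Eya1 were above background on all 8 arrays, while Cited1 and Gdnf were above it on 0 arrays and Meox1 on 2. Their summed signal was 2403 to 2987 on Wt1 siRNA arrays and 1395 to 2073 on control siRNA arrays, but most of it was Osr1 signal. Without Osr1 the sum was 866 to 1214 on Wt1 siRNA arrays and 702 to 1012 on control siRNA arrays, and the ranges overlapped. Of 5 stromal markers, Tcf21 and Tbx18 were above background throughout, and the sum was 1530 to 1892 on Wt1 siRNA arrays and 2475 to 2701 on control siRNA arrays. All 4 mesothelial markers (Msln, Upk3b, Lrrn4 and Krt19) were above background on all arrays, with a sum of 22626 to 26954 on Wt1 siRNA arrays and 45116 to 51360 on control siRNA arrays. Krt19 differed little (means 7105 after Wt1 siRNA, 7476 after control siRNA). Msln (12227 and 20460), Upk3b (5715 and 15246) and Lrrn4 (626 and 4981) were lower after Wt1 siRNA. The endothelial and leukocyte markers Pecam1, Tie1, Ptprc and Itgam were above background on 0 arrays, while Kdr and Cd68 were above it on all. The leukocyte sum, mostly Cd68, was 2172 to 2478 on Wt1 siRNA arrays and 1120 to 1356 on control siRNA arrays. The endothelial sum was 1546 to 1795 on Wt1 siRNA arrays and 1942 to 2588 on control siRNA arrays. The podocyte sum, over the 3 markers of 5 with a probe set, was 1306 to 1837 on Wt1 siRNA arrays and 2767 to 5862 on control siRNA arrays. Synpo (means 820 after Wt1 siRNA, 2291 after control siRNA) and Podxl (515 and 1338) made up its fall. Nphs1 was not lower (242 after Wt1 siRNA, 201 after control siRNA) and exceeded background on 4 arrays. The ureteric bud sum (1011 to 1807 after Wt1 siRNA, 1750 to 2181 after control siRNA) and the tubule sum (776.0 to 1304 after Wt1 siRNA, 1131 to 2013 after control siRNA) overlapped between groups. The stromal, mesothelial, leukocyte, endothelial and podocyte sums, and the nephron progenitor sum with Osr1, thus differed between the groups without overlap. Taken singly, 36.3% of tested genes also had groups that did not overlap. Tbx18 was the largest part of the stromal sum (means 873 after Wt1 siRNA, 1622 after control siRNA). Kdr was the largest part of the endothelial sum (1452 after Wt1 siRNA, 1995 after control siRNA). The part of other cell types in the Osr1 result was not tested.

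The called genes among the nephron progenitor partners were lower on their brightest probe sets, and none was called with probe sets averaged. In the list of nephron progenitor partners, 6 of 19 genes were tested at the level of genes, each on its brightest probe set. Of these, 0 rose, 3 fell and 3 did not pass, against 18.8% of all 9097 tested genes called higher and 18.5% lower (37.3% in either direction). The 3 falls were Six4, Eya3 and Eya4. The list's median log2 difference was -0.23, against 0.02 over all tested genes.

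Six4, a homeobox gene related to Six2, fell to 67.4% of control, with means of 1257 ± 253 after Wt1 siRNA and 1843 ± 168 after control siRNA (SD, n = 4 each; log2 -0.57 ± 0.14, adjusted p = 0.0058). Its other 2 tested probe sets were at -0.91 and -0.62. Eya3, a paralogue of Eya1, fell to 67.8% of control, with 2311 ± 153 after Wt1 siRNA and 3409 ± 266 after control siRNA (log2 -0.56 ± 0.09, adjusted p = 0.000324), and its other tested probe sets were at -0.47 and -0.02. Eya4 was at 76.0% of control (adjusted p = 0.0336), with overlapping groups. With all probe sets of a gene averaged, the log2 differences of Six4, Eya3 and Eya4 were -0.76, -0.39 and -0.23 and none was called (adjusted p = 0.0576, 0.341 and 0.654), though that of Six4 was larger than on its brightest probe set. The Eya4 call was also lost with median centring (0.171), without a filter (0.0608), with the class of array median as a block (0.142), and without Wt1 siRNA replicates 1, 2 or 3 or control siRNA replicates 1, 3 or 4 (up to 0.101). Hoxa11, Emx2 and Sall2 did not pass (adjusted p = 0.211, 0.188 and 0.803).

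Genes for proteins that bind the members were mostly well measured. Of 23 such genes 22 were tested, of which 8 rose, 2 fell and 12 did not pass, with a list median of 0.11 (all tested genes 18.8% higher and 18.5% lower, median 0.02). With median centring 5 rose and 0 fell by limma, where 1584 of all 9097 tested genes were called higher and 785 lower. Tcf3, which encodes an E protein that pairs with class II basic helix-loop-helix factors such as TCF21, rose 1.98-fold, with signals of 6415.2, 7012.4, 6176.4 and 7143.2 on Wt1 siRNA arrays 1 to 4, against 3861.5, 2894.0, 3568.3 and 3227.7 on control siRNA arrays 1 to 4. The groups did not overlap, as was so for 36.3% of tested genes (log2 0.99 ± 0.09, adjusted p = 5e-06), and the other 2 Tcf3 probe sets were at 0.79 and 0.85. The other E protein genes, Tcf4 and Tcf12, did not pass (log2 -0.30 and 0.11, adjusted p = 0.0666 and 0.2155). Tle1, a Groucho-type corepressor gene, rose 1.41-fold (log2 0.50 ± 0.08). Of the NuRD deacetylase complex, which SALL1 recruits, Gatad2b rose 1.40-fold and the remodeller gene Chd4 1.37-fold, and with their probe sets averaged they were at 0.01 and 0.35 and not called (adjusted p = 0.983 and 0.382). Also named here after their values were seen, Rbbp4 of the complex was higher (log2 0.24 ± 0.09, adjusted p = 0.0441, and 0.0439 with probe sets averaged) and Mta1 lower (log2 -0.31 ± 0.11). Its genes Hdac1, Hdac2, Mta2, Mta3, Rbbp7, Mbd2, Mbd3 and Gatad2a did not pass. The second fall was the corepressor gene Tle4 (log2 -0.30 ± 0.10), which was not called with its probe sets averaged (-0.26, adjusted p = 0.1504). Tle5 (log2 0.45 ± 0.12, limma adjusted p = 0.0106) and Kmt2b (log2 0.27 ± 0.09, 0.0303) rose too, each on its 1 probe set and with overlapping groups. They were also named after their values were seen. Paxip1, also named after its values were seen, was among the rises on its brightest probe set (log2 0.26 ± 0.09). Its other tested probe sets were at -0.38 to -0.08, and their average with the brightest was -0.13 and not called (adjusted p = 0.370).

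Genes of the steps around the progenitor state went both ways. Of 6 tested genes of the early nephron, 1 rose, 2 fell and 3 did not pass (37.3% of all tested genes called). The Notch ligand gene Jag1 fell to 55.8% of control, Notch2 was at 74.3% and Notch1 was 1.59-fold higher, while Wnt4, the signal for epithelial conversion, did not pass (log2 0.08 ± 0.12, adjusted p = 0.635, with its other tested probe set at 0.55). Notch2 was not called with median centring (adjusted p = 0.148). Of 7 tested ureteric bud genes, 1 rose (Etv4, 2.71-fold), 3 fell and 3 did not pass, against the same 37.3%. Epcam was at 23.3% and the FGF feedback gene Spry1 at 71.5% of control, and Gata3 had a log2 difference of -0.64 ± 0.20. The Epcam fall rests on the 1 tested probe set of its 2, and Epcam was not tested with its probe sets averaged. Gata3 (adjusted p = 0.0690) and Spry1 (0.0667) were not called with the class of array median as a block, Spry1 was also lost with median centring (0.0711) and Etv4 when its probe sets were averaged (log2 0.60). Gata3 was also lost under quantile normalization (0.0530), without a filter (0.0557), and without Wt1 siRNA replicates 1 (0.0669) or 3 (0.0504) or control siRNA replicate 1 (0.0712).

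Of 11 tested stromal genes, 3 rose, 4 fell and 4 did not pass, against 18.8% of all tested genes higher and 18.5% lower. With median centring 4 rose and 4 fell, against 1584 higher and 785 lower of all 9097. Tbx18, a T-box factor of stroma and of the tissue around the ureter, fell to 53.4% of control, with means of 873 ± 144 after Wt1 siRNA and 1622 ± 123 after control siRNA (SD, n = 4 each; log2 -0.91 ± 0.13, adjusted p = 0.000177). Its second probe set was at -0.86. Dcn, for a small matrix proteoglycan, was at 38.9% of control, while Dlk1 was 2.62-fold and Gdf10 1.94-fold higher. The Dlk1 rise is that of the 1 tested probe set of its 2 (log2 1.39). With both averaged it was smaller and still called (log2 0.73, limma adjusted p = 0.0357). Also called, and named here after their values were seen, were Aldh1a2 (log2 -0.83 ± 0.16), Zeb2 (-0.72 ± 0.19) and Ecm1 (0.33 ± 0.09). The Zeb2 groups overlapped, and its other tested probe sets were at -0.85 to -0.24. Zeb2 was not tested with its probe sets averaged.

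**Figure D4:**
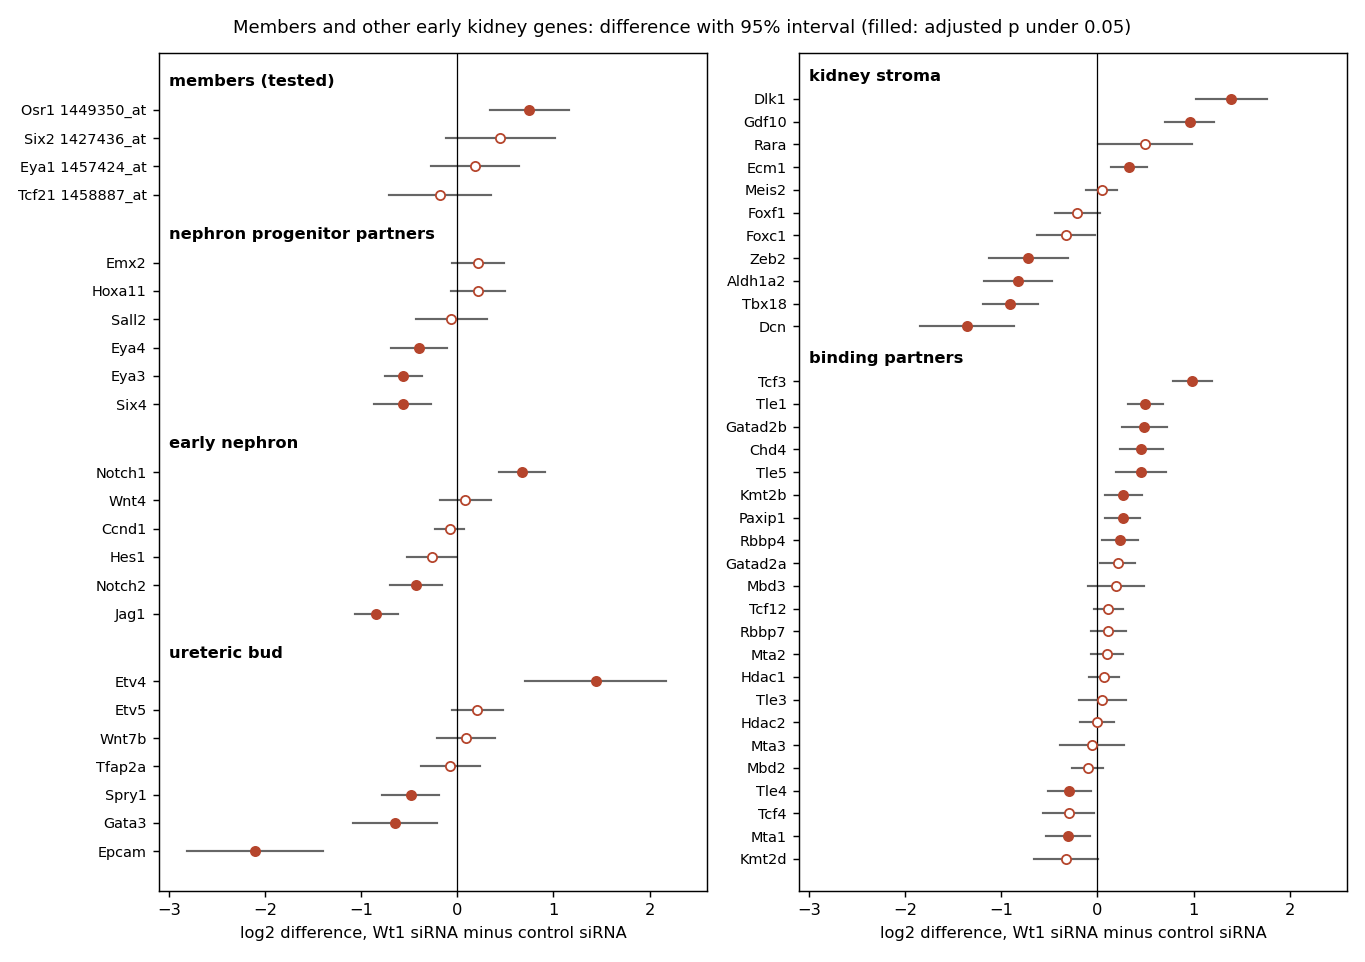
Log2 difference, Wt1 siRNA minus control siRNA (x axis), with its 95% interval for the 4 tested member probe sets and for every tested gene of the 5 lists (rows, grouped by list), filled where the adjusted p was under 0.05. Osr1 lies at 0.75 above 0 while Six4, Eya3 and Eya4 lie below 0, and Tcf3 stands at 0.99 at the top of the binding partners.

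The genes with signal profiles most like Osr1 over the 8 arrays were Rita1, Nabp2 and Cd80, at Pearson correlations of 0.983, 0.975 and 0.975. Rita1, for a protein that binds RBPJ, was at 1904 after Wt1 siRNA and 1466 after control siRNA (log2 0.39 ± 0.11), and with its probe sets averaged it was at 0.40 and not called (adjusted p = 0.253). Nabp2, for a single-stranded DNA binding protein, was at 3493 and 2590 (log2 0.44 ± 0.12, Wt1 siRNA and control siRNA means). Cd80, a costimulatory ligand gene, was at 1948 after Wt1 siRNA and 944 after control siRNA (log2 1.11 ± 0.20). As for Osr1, the lowest signal of Rita1, Nabp2 and Cd80 was that of control siRNA array 3. Their control siRNA signal nearest to the Wt1 siRNA group was that of array 1. The genes were chosen by correlation over these same arrays, so such a shared order comes with the choice. The 8 points share the split into 2 groups and the arrays themselves, so these correlations are a description.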

How the data were processed

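Each probe set has a signal, an intensity on a linear scale that the authors deposited after MAS5, per the submitters' processing notes. The MAS5 version and detection calls are not given in the sources used here. All arrays had the same mean signal with 2% of probe sets trimmed at each end, and no pair of arrays shared more than 42 identical values. Depth has no meaning for arrays, and their number, 4 per group, limits the precision. Of 45037 probe sets other than 64 controls, 34945 had 1 symbol (34741 updated through Entrez gene IDs to RefSeq symbols), 932 had several and 9160 were unnamed here.

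Signals were log2 transformed with no further scaling. Differences are Wt1 siRNA minus control siRNA. They were tested with limma 3.58.1 in R 4.3.3 (lmFit, eBayes with an intensity trend, two-sided), with Benjamini-Hochberg adjustment and a threshold of 0.05. Member probe sets were tested among the brighter share of 0.5 of all probe sets, and other genes on their brightest probe set among the brighter share of 0.5 of genes. Dimmer members are given as values. The fit was also run on simulated data with independent errors. That run did not include the classes of array median, and no result is drawn from it. Errors after log2 differences are SE and after signals SD. A fold or percent of control is a ratio of geometric means. Symbols and lists were chosen with earlier results of these data known. Genes named besides the members were Wt1, up to 4 called genes of each list by size, the 3 genes that correlate best with a called member, and some further list genes and markers chosen after their values were seen. Alternatives are given in the closing section. The class of array median signal was added after seeing the data. Figures used matplotlib 3.10.9 in Python 3.11.15.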

Additional observations from a re-analysis of the deposited data

Results flagged for a closer look

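In 66 groups of 4 arrays (member probe sets, Wt1 and the named list genes), 4 had 1 array set apart from the other three by Dixon's criterion, which chance flags in about 1 of 20 groups. On the dim Tcf21 probe set 1417447_at, Wt1 siRNA array 3 gave 21.8, against 116.2 to 129.2 on the other Wt1 siRNA arrays. Eya3 gave 2081.7 on Wt1 siRNA array 2, against 2376.6 to 2395.3 on the other Wt1 siRNA arrays. Spry1 gave 1600.3 on control siRNA array 3, against 2321.7 to 2486.6 on the other control siRNA arrays. Gdf10 gave 3353.4 on control siRNA array 3, against 2423.8 to 2504.5 on the other control siRNA arrays.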

How the results depend on the processing

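Osr1 was the only member called, as higher, under all alternatives that tested it, at 0.57 to 0.95 with adjusted p of 0.00243 to 0.0431. Among the brightest share of 0.25 of probe sets the count of members called higher was 0, because that filter removes Osr1. Six2 (0.21 to 0.69), Eya1 (0.07 to 0.30) and Tcf21 (-0.34 to -0.03) passed under none of the alternatives that tested them. Of the 52 tested list genes 13 were higher and 14 lower, against 1708 and 1686 of all 9097 tested genes. The number lower was 9 with median centring, 4 among the brightest share of 0.25 and 8 with the mean over probe sets. The number lower over all tested genes dropped as well. It was 785 of 9097 with median centring, 775 of 4549 among the brightest share of 0.25 and 1225 of 9097 with the mean over probe sets. Without 1 replicate at a time, 10 to 13 were higher and 11 to 13 lower, and the members called were 1 higher and 0 lower each time. Same-numbered arrays of the 2 groups had deviations correlated at -0.04, -0.06, 0.04 and 0.08. Arrays of unlike number gave -0.20 to 0.16, so these values cannot tell whether the numbers pair the arrays. The fit with the replicate block gave Osr1 an adjusted p of 0.0089 and called 4608 probe sets, against 5194 without it. Median centring called 2459 probe sets higher and 1369 lower, against 2430 and 2764 as reported. Signals near background set the limit for 10 of the 14 member probe sets.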

Other observations

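Some list genes fell under the filter at the level of genes but had a brightest probe set in the fit of probe sets. Of 8 such genes, 1 was called (12.5%, against 23.1% of all tested probe sets). That gene was Rarb, a retinoic acid receptor gene of the kidney stroma, chosen here after its values were seen. Its signals were 188.7, 224.4, 246.8 and 299.8 on Wt1 siRNA arrays 1 to 4, against 495.3, 610.4, 590.9 and 326.2 on control siRNA arrays 1 to 4. The groups did not overlap, and Rarb fell to 48.2% of control (log2 -1.05 ± 0.25, SE, n = 4 each; limma adjusted p = 0.0114). The receptor tyrosine kinase gene Ret, which answers GDNF in the ureteric bud, did not pass, at 400 ± 146 after Wt1 siRNA and 316 ± 72.9 after control siRNA (SD, n = 4 each; limma adjusted p = 0.465).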
